A study of Homo sapiens with 6 samples.

Results

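TFAP2 transcription factors (the AP-2 family) were described across naive and primed human embryonic stem (ES) cells. The 5 members, TFAP2A, TFAP2B, TFAP2C, TFAP2D and TFAP2E, were chosen by gene name among 48183 gene names of a bulk RNA-seq count table, and each had 1 Ensembl identifier. The rule itself used names and no measured values, but the family was chosen with earlier results of these data known. All 6 libraries of the study were used, 4 of naive and 2 of primed cells.

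The naive libraries came from cells driven out of the primed state in 3 ways. Cells of the EOS line were converted with AICAR, an activator of the energy sensor AMPK, added to PXGL medium (PD0325901, XAV939, Go6983 and LIF) for an induction of 14 days and then kept for a further week at a lower concentration (2 libraries, AICAR 1 and AICAR 2). Cells of the CA-p38 EOS line, which carry a doxycycline-inducible constitutively active p38 kinase, were converted by doxycycline in PXGL, in an induction counted as 7 days (1 library, CA-p38). EOS cells were also converted with valproic acid, a histone deacetylase inhibitor, for 9 days in Ndiff227 with PD0325901 and LIF (1 library, VPA). Naive cells were expanded in PXGL without the inducer and sorted for CD75 and SUSD2, which are surface markers of the naive state. The labels give inactivated mouse embryonic fibroblasts as feeders, and the study also describes transfer of converted cells to PXGL without feeders, so which of these libraries had feeders is not given. The untreated parental lines, grown in StemFit AK02N on Matrigel and not sorted, gave 1 primed library each (primed EOS and primed CA-p38). Both lines carry the EOS-GFP pluripotency reporter. The labels give H1 as the cell line, whereas the methods of the study name H9. Medium, sorting and the expansion after induction changed together with the state, so their parts in a difference cannot be told apart. Whether a line is 1 clone is not given. The study lists its 2 AICAR samples at consecutive passages after induction. Whether the libraries of the naive state came from separate conversions is not given either, so p-values measure the spread between these 6 libraries.

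TFAP2 proteins bind DNA as dimers through a basic region and a helix-span-helix domain, most often at GC-rich palindromes. TFAP2C is known for opening enhancers in human naive pluripotent cells, and for roles in trophoblast and primordial germ cells. TFAP2A acts in trophoblast, amnion, surface ectoderm and neural crest, TFAP2B in neural crest and kidney, TFAP2D in the developing nervous system, and TFAP2E in the olfactory bulb. Their output depends on partners, among them the CITED coactivators, the acetyltransferases CREBBP and EP300, and the KCTD repressors.

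The members lie at 4 places in the genome (GRCh38, GENCODE 44). TFAP2A spans chromosome 6 from 10393186 to 10419659 on the minus strand. TFAP2D (chromosome 6, 50713526 to 50773033) and TFAP2B (chromosome 6, 50818723 to 50847619) are neighbours on the plus strand, 45690 bases apart. TFAP2C spans chromosome 20 from 56629306 to 56639283, and TFAP2E chromosome 1 from 35573314 to 35595328, both on the plus strand.

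The promoter table drawn from RefSeq held 5 windows for 4 of the members, TFAP2A (with 2 start sites), TFAP2B, TFAP2D and TFAP2E, each from 250 bases before to 50 after a start. The 3 stretches below are the 250 bases upstream of the start of the members that had the most counts among these 4, and of TFAP2D, which had none in primed cells. They are shown 5′ to 3′ on the strand of the gene. Capitals mark TATAA on either strand, a motif chosen after the sequences had been seen.
TFAP2A, chr6:10419660-10419909, minus strand, GRCh38.p14: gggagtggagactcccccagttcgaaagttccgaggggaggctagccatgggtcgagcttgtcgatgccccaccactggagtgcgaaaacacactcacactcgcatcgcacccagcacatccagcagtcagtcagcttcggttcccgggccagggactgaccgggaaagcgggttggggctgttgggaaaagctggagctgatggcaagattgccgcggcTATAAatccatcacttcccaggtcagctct
TFAP2E, chr1:35573064-35573313, plus strand, GRCh38.p14: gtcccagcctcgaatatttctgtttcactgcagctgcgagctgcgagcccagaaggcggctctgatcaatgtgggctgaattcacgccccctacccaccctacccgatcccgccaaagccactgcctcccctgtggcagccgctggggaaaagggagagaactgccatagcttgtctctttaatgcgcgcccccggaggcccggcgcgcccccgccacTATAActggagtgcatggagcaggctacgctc
TFAP2D, chr6:50713276-50713525, plus strand, GRCh38.p14: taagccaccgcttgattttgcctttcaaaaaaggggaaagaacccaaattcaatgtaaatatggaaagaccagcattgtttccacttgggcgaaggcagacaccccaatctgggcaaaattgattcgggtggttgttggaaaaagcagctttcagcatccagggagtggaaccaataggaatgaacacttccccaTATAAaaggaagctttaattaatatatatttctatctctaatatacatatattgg

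In the TFAP2A stretch TATAA began 30 bases before the start, and in the TFAP2E stretch 32 bases before it. A TATAA on the transcribed strand within the last 50 bases before the start was found in 4.74% of all 35116 windows. The TATAA marked in the TFAP2D stretch lies outside those 50 bases. By the wider rule of the marks, either strand anywhere in the window, TATAA was in 20.4% of windows. The palindrome GCCNNNGGC, a form of the AP-2 recognition sequence that reads the same on both strands, was in none of the 5 windows of these members. It was in 8146 of all 35116 windows (23.2%). The windows differed in base composition, with a GC content of 61.7% for TFAP2A at the start shown and 62.7% for TFAP2E, against 39.3% for TFAP2D and 43.0% for TFAP2B. No match says only that these letters are not in these 300 bases.

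The libraries held 46823699 to 54277064 counts, so a gene with 0 counts in a library lay under 0.0552 to 0.0613 CPM (CPM being counts scaled by library size with TMM factors, and this limit the level of 3 counts). Lists of markers were set beside the state labels. SUSD2, among the naive genes, was used for the sort, and the lists were chosen with earlier results known. Their values therefore describe the libraries and are no independent check of the labels. All 12 naive genes were higher in the naive libraries (median log2 fold change 8.82) and all 10 primed genes were lower. Of 8 fibroblast genes, 5 were lower in naive cells and none higher, and their summed level was 41.6 to 82.9 CPM in naive against 281 and 278 CPM in primed libraries.

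All 5 TFAP2 genes were higher in naive than in primed cells, and in each of them all 4 naive libraries lay above both primed libraries. Across the 26497 gene names tested, 26% were called higher in the naive state and 27% lower (quasi-likelihood test of edgeR, Benjamini-Hochberg adjusted p under 0.05), and 32.9% had all naive libraries above both primed. The median fitted log2 fold change of the members was 5.18, or 4.43 with TFAP2D at its lower bound, against 0.11 over all genes tested. All 5 members passed the filter on low counts, but TFAP2A, TFAP2B and TFAP2D had at most 4 counts in a primed library and passed through the naive libraries, so the count over the members is a description and no support of its own. In these bulk libraries, fewer cells that express a gene and less RNA per cell cannot be told apart.

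**Figure D1:**
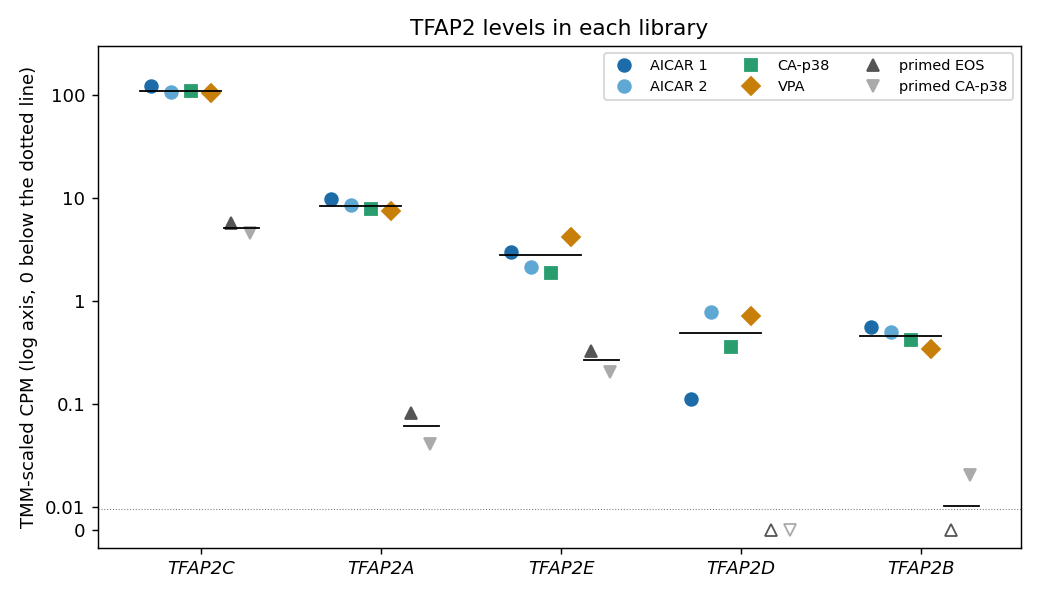
TMM-scaled CPM (log axis) of the 5 TFAP2 genes in each library, with filled symbols for values above 0, open symbols below the dotted line for 0 counts, and horizontal bars for the group means (4 naive, 2 primed libraries). For every gene the naive libraries sit above both primed libraries, and TFAP2C is near 110 CPM in naive cells against 5.13 CPM in primed cells.

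TFAP2C was the most abundant member per kilobase of exon in every library. It stood at 121 CPM in AICAR 1 and 106 CPM in AICAR 2, at 110 CPM in CA-p38 and at 104 CPM in VPA. Primed EOS had 5.72 CPM and primed CA-p38 had 4.54 CPM. The 4 naive libraries lay within 1.17-fold of each other and the primed libraries had a level of their own, with 283 and 222 counts. The means were 110 ± 7.63 CPM (SD, n = 4) and 5.13 ± 0.834 CPM (SD, n = 2), a log2 fold change of 4.43 with a standard error of 0.16 (adjusted p = 2.07e-10). Under the alternative settings this log2 fold change ran from 4.28 to 4.59. Of all genes tested, 3.04% had a higher log2 fold change.

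TFAP2A was close to absent from primed cells. Its level was 9.68 CPM in AICAR 1 and 8.45 CPM in AICAR 2, then 7.75 CPM in CA-p38 and 7.43 CPM in VPA. Primed EOS held 4 counts (0.0808 CPM) and primed CA-p38 held 2 counts (0.0409 CPM). Among naive libraries AICAR 1 was the highest, 1.30-fold above VPA (95% counting interval 1.14 to 1.49). The group means were 8.33 ± 0.995 CPM (SD, n = 4) and 0.0608 ± 0.0282 CPM (SD, n = 2). On the log2 scale the difference was 7.04 with a standard error of 0.40 (adjusted p = 1.31e-08), and the pooled counts gave a ratio of 137 (62.8 to 374). Of genes tested, 1.12% had a higher log2 fold change. This rank rests on 6 primed counts in all for a gene that passed the filter through its naive libraries, and is no support of its own.

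TFAP2E had 2.98 CPM in AICAR 1 and 2.15 CPM in AICAR 2, with 1.88 CPM in CA-p38 and 4.14 CPM in VPA. Its primed levels were 0.323 CPM (EOS, 16 counts) and 0.204 CPM (CA-p38, 10 counts). It was highest in VPA, and that library exceeded each other naive library by more than counting error. The ratio of VPA to CA-p38 was 2.20 (1.72 to 2.84), that of VPA to AICAR 1 was 1.39 (1.13 to 1.72), and that of VPA to AICAR 2 was 1.92 (1.52 to 2.45). With 1 VPA library this is a difference between libraries and not between inducers. The means were 2.79 ± 1.02 CPM (SD, n = 4) and 0.264 ± 0.0840 CPM (SD, n = 2), a log2 fold change of 3.39 with a standard error of 0.47 (adjusted p = 5.3e-05).

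TFAP2D and TFAP2B, the neighbours on chromosome 6, were low throughout. TFAP2D had 6 counts in AICAR 1 and 39 in AICAR 2, with 18 in CA-p38 and 37 in VPA, and 0 counts in both primed libraries. Against 3 counts per primed library (0.0609 CPM), its naive mean of 0.489 ± 0.314 CPM (SD, n = 4) was at least 8.03-fold higher (adjusted p = 0.00208). That bound leaves out counting error in the naive libraries. TFAP2D was the member with the widest spread among naive libraries, and the libraries of the same inducer differed most, with AICAR 2 7.11-fold above AICAR 1 (2.99 to 20.6).

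TFAP2B had 30 counts in AICAR 1 and 25 in AICAR 2, with 21 in CA-p38 and 18 in VPA. Primed EOS had 0 counts and primed CA-p38 had 1. Unlike TFAP2D, its naive libraries were not separated by counting error, the widest ratio being 1.61 (0.866 to 3.06). The naive mean was 0.454 ± 0.0924 CPM (SD, n = 4), and the pooled counts gave a ratio of 44.7 over the primed level (7.83 to 1784). The adjusted p was 0.00115. Since the primed level rests on 1 count, the fitted log2 fold change of 5.18 (standard error 1.06) became 4.31 without primed EOS and 7.55 without primed CA-p38.

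**Figure D2:**
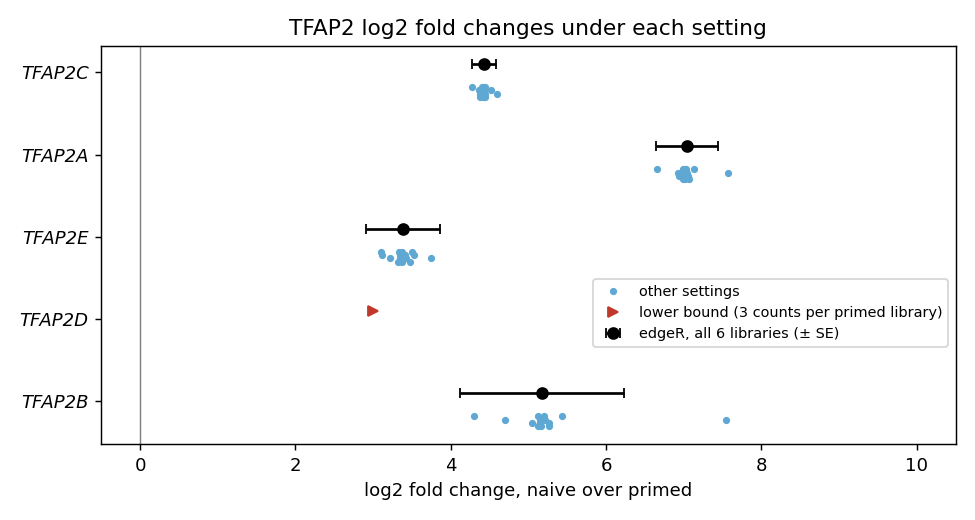
Log2 fold change of naive over primed cells for each TFAP2 gene, with black points and bars for the edgeR fit of all 6 libraries ± standard error, blue points for the other settings, and a red arrowhead for the lower bound of TFAP2D. TFAP2C stays between 4.28 and 4.59 and TFAP2E between 3.11 and 3.74, whereas TFAP2B ranges from 4.31 to 7.55.

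Each naive library was next set against the primed library of its own line. For TFAP2C the fold was 21.2 in AICAR 1, 18.6 in AICAR 2 and 18.1 in VPA over primed EOS, and 24.3 in CA-p38 over primed CA-p38. The TFAP2C interval of CA-p38 (21.2 to 27.9) lay above that of VPA (16.1 to 20.5), and over the averaged primed libraries the 4 folds ran from 20.2 to 23.6. For TFAP2E the folds were 9.22 and 6.66 in the AICAR libraries, 12.8 in VPA and 9.20 in CA-p38. For TFAP2A they were 120, 105 and 91.9 in AICAR 1, AICAR 2 and VPA, and 190 in CA-p38, where the interval ran from 52.2 to 1572 because the parental library held 2 counts.

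For the low members most parental libraries gave only a bound. TFAP2B was at least 9.11-fold higher in AICAR 1, at least 8.30-fold in AICAR 2 and at least 5.67-fold in VPA, and 20.3-fold higher in CA-p38 (3.27 to 841). TFAP2D was at least 1.82-fold higher in AICAR 1, 13.0-fold in AICAR 2, 11.7-fold in VPA and 5.81-fold in CA-p38. Each line had 1 primed library, so these folds have no replicate check, and the intervals cover counting error only.

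**Figure D3:**
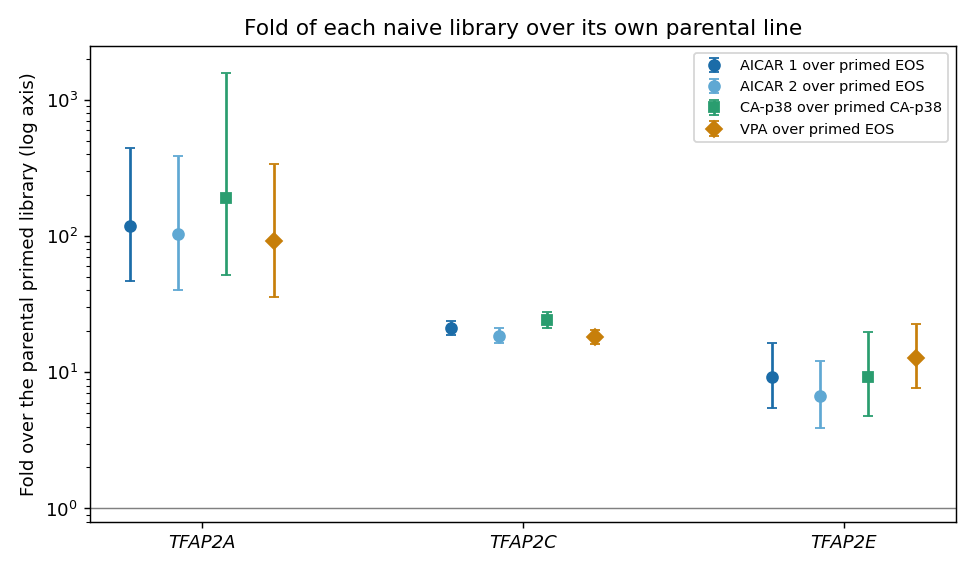
Fold of each naive library over the primed library of its own line (log axis) for TFAP2A, TFAP2C and TFAP2E, with 95% exact binomial intervals of the counts as bars. The TFAP2C folds lie between 18.1 and 24.3 with narrow intervals, and the TFAP2A intervals are wide because the primed libraries held 4 and 2 counts.

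Levels of different genes were compared per kilobase of merged exon. On that scale the TFAP2C level was 34.6 to 40.4 CPM per kilobase in naive libraries, the TFAP2A level 0.904 to 1.18, the TFAP2E level 0.436 to 0.962, the TFAP2D level 0.0501 to 0.356 and the TFAP2B level 0.0558 to 0.0897. TFAP2C therefore stood apart from the rest, and TFAP2D and TFAP2B overlapped. TFAP2A and TFAP2E overlapped per merged exon but not per canonical transcript, where their levels were 2.36 to 3.08 and 0.837 to 1.85. Per merged exon, TFAP2C made up 93.9% to 95.8% of the summed family level in naive and 95.7% and 96.4% in primed libraries. Per canonical transcript its share was 88.7% to 91.5% in naive, and 92.2% and 93.6% in primed libraries. The family sum per merged exon was 36.8 to 42.4 CPM per kilobase in naive cells against 1.99 and 1.57 in primed cells.

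The order below TFAP2C differed between the states. In both primed libraries TFAP2E stood above TFAP2A per kilobase, and in AICAR 1, AICAR 2 and CA-p38 it stood below. In VPA the order depended on the length used, with TFAP2A at 0.939 of the TFAP2E level per merged exon and at 1.28 times that level per canonical transcript. The ratio of TFAP2C to TFAP2A was 34.3 to 38.9 in naive libraries, and 194 and 304 in primed libraries, where TFAP2A rests on 4 and 2 counts. Per canonical transcript this ratio was 13.7 to 15.6 in naive libraries, and 77.7 and 122 in primed libraries.

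Neighbouring and antisense genes were read next, because it is not stated whether the counting used the strand of the reads. TFAP2A-AS2, an antisense RNA within TFAP2A that shares 941 of its 3427 exon bases with it, had 108 and 62 counts in the AICAR libraries, 27 in CA-p38, 33 in VPA and 12 and 7 in the primed libraries. It was higher in naive cells by a log2 difference of 2.48 ± 0.66 (SE; adjusted p = 0.0072, in a fit that kept identifiers apart). TFAP2A-AS1 had at most 8 counts in any library. TFAP2E-AS1, which overlaps the start of TFAP2E, shares 110 of its 1086 exon bases with it. It had 24, 37, 50 and 89 counts in the same naive libraries and 7 in each primed library, and was higher by a log2 difference of 2.73 ± 0.65 (SE; adjusted p = 0.00382). Like TFAP2E, it was highest in VPA, but the order of the other naive libraries was the reverse. In AICAR 1, AICAR 2 and CA-p38 it had 0.441, 0.745 and 0.989 CPM, where TFAP2E had 2.98, 2.15 and 1.88 CPM. Without strand, reads of a gene and its antisense partner cannot be told apart where their exons overlap.

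Of the nearest protein-coding genes that are no members themselves, none of the 6 tested was called higher. Across all genes tested 26% were higher and 27% lower, so a count over 6 genes says little about these places. GCNT2, a glycosyltransferase gene 72564 bases from TFAP2A, had a log2 fold change of 0.02 (adjusted p = 0.911). The transporter gene SLC35B3, 1957625 bases away on the other side, had one of 0.19 (adjusted p = 0.391). Beside TFAP2E, NCDN (neurochondrin) fell by 0.98 on the log2 scale (adjusted p = 0.000128) and the proteasome subunit gene PSMB2 had a value of -0.23 (adjusted p = 0.0632). BMP7, a BMP ligand gene 529470 bases from TFAP2C, fell by 0.63 on the log2 scale (adjusted p = 0.0195). PKHD1, 767680 bases beyond TFAP2B, had a value of 1.13 (adjusted p = 0.155). FAM209B, on the other side of TFAP2C, had at most 9 counts in any library and was not tested. DEFB112, beyond TFAP2D, had 0 counts in every library.

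Of 12 partners and regulators of TFAP2 proteins, all tested, 2 were higher and 8 lower in the naive state. Their median log2 fold change was -0.81. Across all genes tested, 26% were higher and 27% lower. Among the coactivators, CITED1 fell by 2.86 (1.22 ± 0.441 CPM in primed, n = 2, to 0.166 ± 0.0649 CPM in naive cells, n = 4) and CITED2 by 1.53 on the log2 scale (56.5 ± 1.44 to 19.5 ± 2.52 CPM). CITED4 had a value of 0.49 (adjusted p = 0.0849). CREBBP, the acetyltransferase that CITED proteins recruit, fell by 1.05, and its paralogue EP300 had a value of -0.33 (adjusted p = 0.0541). DEK, a chromatin protein that binds TFAP2A, fell by 1.28.

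Among the repressors and other regulators, KCTD1 rose by 0.82 and KCTD15 fell by 0.88, both known to inhibit TFAP2A. WWOX, which holds TFAP2C in the cytoplasm, fell by 1.08. NPM1, a nucleolar chaperone, fell by 0.44, and YEATS4, a chromatin reader that binds TFAP2B, rose by 0.33. All these changes passed the same test, the highest adjusted p being 0.0406 for YEATS4, whose call was lost in 9 of 14 alternatives (adjusted p up to 0.156, without primed CA-p38).

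Genes of trophectoderm and amnion, lineages in which TFAP2A and TFAP2C are also used, went both ways. Of 15 genes, 12 were tested, 6 were higher and 3 lower, with a median log2 fold change of 0.87. The shares over all genes tested were 26% higher and 27% lower. The transcription factor gene GATA2 had 4.93 ± 0.644 CPM (n = 4) in naive and 0.225 ± 0.318 CPM (n = 2) in primed cells (log2 fold change 4.45, and 3.44 without primed EOS), the primed value resting on 22 counts in CA-p38 and 0 in EOS. CDX2 was at 1.82 ± 0.534 CPM against 1 count in both primed libraries together, and HAND1 at 1.98 ± 0.668 against 0.121 ± 0.171 CPM, its primed counts being 12 in EOS and 0 in CA-p38 (a log2 fold change of 3.02 without primed CA-p38). ISL1 rose by 3.48 (3.03 without primed EOS, 4.13 without primed CA-p38). KRT7, also among the higher, lost its call in 2 of 14 alternatives. The 3 lower members were the keratin genes KRT18 and KRT8, which fell by 2.33 and 1.70 on the log2 scale, and IGFBP3, which fell by 1.98, while without primed CA-p38 it fell by 1.17. GATA3 did not pass (adjusted p = 0.393), with 2.45 and 2.31 CPM in the AICAR libraries, 0.712 in CA-p38 and 0.382 in VPA.

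As a whole the trophectoderm and amnion list summed to 511 to 639 CPM in naive and to 1428 and 1680 CPM in primed libraries. KRT8 and KRT18 carried this sum, and the other 13 genes came to 187 to 226 CPM in naive against 135 and 167 CPM in primed libraries. TEAD4 (mean 108 CPM in naive, 73.1 CPM in primed) and GABRP (80.1 and 67.6 CPM) made up most of that remainder. GABRP was not called (adjusted p = 0.18). VGLL1 had 0 counts in 3 naive libraries, and TP63 and VTCN1 in 2 each. The part of such cells in the TFAP2 levels was not tested.

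Primordial germ cell genes, of which 8 of 10 were tested, had 5 higher and 3 lower members, with a median log2 fold change of 2.01. Over all genes tested the shares were 26% and 27%. SOX15 rose by 6.40, and UTF1 by 5.45 (6.11 without primed EOS). PRDM1, which works beside TFAP2C in germ cells, rose by 4.43, from 0.465 CPM in EOS and 2.60 CPM in CA-p38 cells of the primed state, and the value was 3.65 without primed EOS and 6.15 without primed CA-p38. SOX17, the specifier of human germ cells, fell by 3.50 (0.281 ± 0.0835 CPM in naive, n = 4, against 3.21 ± 2.34 CPM in primed cells, n = 2). Without primed EOS it fell by 4.12, and without primed CA-p38 it fell by 2.45. The receptor gene KIT fell by 2.20. The calls of PDPN (lower) and CD38 (higher) were lost in 2 and 1 of 14 alternatives. NANOS3 had 0 counts in all naive libraries.

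Neural crest genes, in which TFAP2A and TFAP2B act, had 3 higher and 3 lower members among 11 tested of 12. Their median log2 fold change was 0.35. These counts are near the shares over all genes tested, 26% higher and 27% lower. TWIST1, MSX2 and MSX1 rose by 5.96, 4.50 and 1.89, and SNAI2 and FOXD3 fell by 3.93 and 2.40. The MSX2 value was 3.97 without primed EOS and 5.31 without primed CA-p38. SOX10, which marks the lineage, was at 2.29 ± 0.166 CPM in naive (n = 4) and 1.77 ± 0.948 CPM in primed cells (n = 2; adjusted p = 0.401). PAX7 had 0 counts in all naive libraries.

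Genes described as TFAP2 targets in other cells, mostly breast carcinoma, had 3 higher and 7 lower members among 13 tested of 14. Their median log2 fold change was -0.63. Among all genes tested 26% were higher and 27% lower. CDKN1A, a cell cycle inhibitor, rose by 2.70, and CDH1, which encodes E-cadherin, by 2.38, from 59.7 to 311 CPM. The receptor gene ERBB2 fell by 1.72, from 217 to 65.9 CPM, IGFBP5 fell by 3.35 and WWC1 by 2.21. EGFR, also among the lower, lost its call in 5 of 14 alternatives. FOXA1, with 16 and 72 counts in primed libraries, had at most 3 counts in any naive library, and its call was lost without primed CA-p38 (adjusted p = 0.0799, from 1.9e-07 over the 13 alternatives). Of the 12 genes of this list with a promoter window, 8 held GCCNNNGGC, the largest share among the lists searched. It was in 5 of 12 trophectoderm and amnion genes, 4 of 8 naive, 3 of 8 primed and 3 of 10 partner genes. Germ cell genes had it in 2 of 8, neural crest genes in 0 of 7 and fibroblast genes in 0 of 2. Of tested genes with a window of at least 60% GC, 40.2% held it. Whether base composition accounts for the share in this list was not tested. Among all tested genes with a window, 31.5% of those higher and 31.4% of those lower in naive cells held it, against 27.7% of those that did not pass, at median GC contents of 63.7%, 65.0% and 62.7%.

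**Figure D4:**
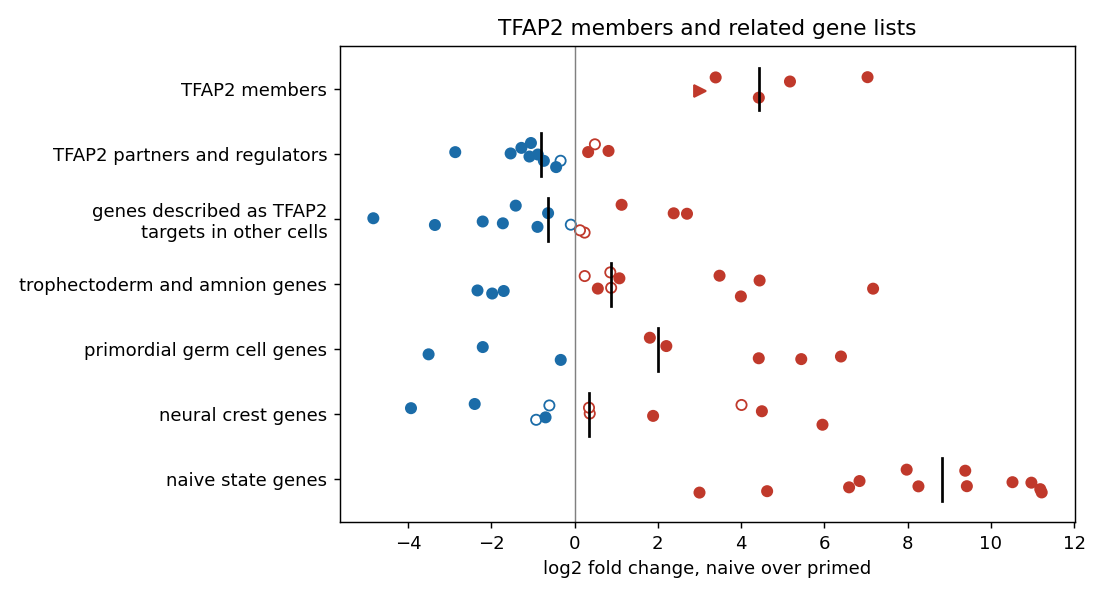
Log2 fold change of naive over primed cells for the TFAP2 members and 6 related gene lists, with red for higher and blue for lower values, filled for genes past the threshold, open for the rest, and a vertical bar at each median. TFAP2D is drawn as an arrowhead at its lower bound, which puts the median of the members at 4.43, and the partners and regulators lie mostly below 0 with a median of -0.81.

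The genes whose profile over the 6 libraries was most like that of a member were taken by Euclidean distance between log2 CPM values centred on each gene's mean, among the 12602 or 12603 other tested genes whose mean reached 5 CPM. For TFAP2C these were KLRG2 (distance 0.178), NLRP2 (0.196), SLC6A10P (0.244), NFKB2 (0.280) and ASS1 (0.294). NLRP2, a gene of the early embryo, was at 1310 CPM in naive and 61.0 CPM in primed cells. For TFAP2A they were ZNF595, ADAMTSL5, ZNF486, SCUBE2 and MT1E, at 0.325 to 0.415. For TFAP2E they were SLC44A3-AS1, KREMEN2, NEK5, SLC4A11 and KANK3, at 0.488 to 0.690.

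Likeness was loose for TFAP2D, whose nearest profile was that of ZNF844 at 1.59, followed by FAM20A, NNAT, LEFTY2 and DSG3. For TFAP2B the nearest were F3 (0.256), GADD45B, TMEM51-AS1, SOAT1 and METTL21A, but its primed values, and those of TFAP2D, are set by the prior count of 2 used for the logarithm. The primed values of TFAP2A, on 4 and 2 counts, also depend on this prior count. Within the family the closest pair was TFAP2B and TFAP2E at 1.43.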

How the data were processed

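Polyadenylated RNA of 4 naive and 2 primed libraries was sequenced (SMART-Seq Stranded kit). Per the labels and the methods, the authors trimmed reads with cutadapt 1.15 through Trim Galore 0.4.4, mapped them with Bowtie2 to the cDNA and noncoding RNA of Ensembl GRCh38 release 100, and discarded alignments of mapping quality under 1. The authors deposited whole-number counts for each Ensembl identifier, not normalized. RSEM and limma, which the submitters' processing notes also name, left no values used here. Of 61196 identifiers, those sharing a name were summed to 48183 names, and 26 spike-in rows and 23 columns of other studies were left out.

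The 2 states were compared in R 4.3.3 with the quasi-likelihood test of edgeR 4.0.16 ( TMM factors 0.936 to 1.06, filterByExpr by state, no covariates), with Benjamini-Hochberg adjustment over 26497 names. A design of 4 against 2 cannot give an exact permutation p below 0.0667 for a single value. DESeq2 1.42.0 and limma-voom (limma 3.58.1) were alternatives. Standard errors are the log2 fold change over the root of F. Ratio intervals are 95% Clopper-Pearson intervals, and bounds use 3 counts per library. Antisense and neighbouring genes came from a fit with identifiers apart. AICAR 1 and AICAR 2 differed beyond sampling noise (chi-square 23.9 per gene, 22.5 to 41.8 for other naive pairs). This does not show separate conversions, but they counted as separate. Labels give no sequencing batch. The fits were tested on simulated data. Promoters are RefSeq's, gene models GENCODE 44. Named genes were the members, their neighbours, the 5 nearest profiles, the partners (1 of which is not reported here by name), and from each other list the 2 to 4 with the largest changes past the threshold. Other genes named from those lists were chosen after their values were seen. Members and lists were chosen with earlier results of these data known.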

Additional observations from a re-analysis of the deposited data

How the results depend on the processing

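All 5 TFAP2 genes kept their direction and stayed past the threshold under the other scalings (median-ratio factors, library totals), DESeq2, limma-voom, no filter, identifiers apart, the AICAR libraries summed, the parental line as a block, and without any single library. Requiring at least 10 counts in every library left 2 of them to test, TFAP2C and TFAP2E, both called, and left 6 trophectoderm and amnion genes, of which 5 were called (2 higher, 3 lower). The highest adjusted p over the alternatives was 2.81e-05 for TFAP2A and 0.0193 for TFAP2D (both limma-voom), 0.0153 for TFAP2B (without primed EOS), 0.00147 for TFAP2E (without primed CA-p38) and 6.55e-09 for TFAP2C. Leaving out 1 library moved the TFAP2A log2 fold change between 6.65 and 7.58, that of TFAP2C between 4.28 and 4.59 and that of TFAP2E between 3.11 and 3.74. Over all genes tested the scaling set the median at 0.11 (TMM), 0.21 (library totals) or 0.06 (median-ratio factors) on the log2 scale. Per canonical transcript, a length added after seeing the data, the mean naive level was 2.65 CPM per kilobase for TFAP2A and 1.24 for TFAP2E. The labels give naive and primed libraries no shared replicate numbers, and the line as a block, which ties each naive library to its parental primed library, gave 6.99 for TFAP2A and 3.22 for TFAP2E. TFAP2B and TFAP2D are limited by depth, with at most 1 count in a primed library.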
